A study of Mus musculus with 39 samples.

Results

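Recovered lungs of mice that had breathed mainstream tobacco smoke (MTS) for 12 weeks were compared with those of mice that had breathed it for 6 weeks, each followed by a 6 week break without smoke. The arrays were chosen by their titles, and 5 arrays of 12 week smoke and break stood against 5 arrays of 6 week smoke and break, 10 of the 39 arrays analysed here. Each array held RNA from part of the lung of 1 mouse, labelled with Cy5, against a universal mouse reference RNA labelled with Cy3, so every level below is a log2 ratio of lung to reference. No probe differed between the durations past an adjusted p of 0.05. The genes that smoke raised most, among them Cyp1a1, Cyp1b1 and Nqo1, had overlapping levels in the recovered lungs of both groups, with wide intervals of the difference for the cytochromes.

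All mice were male C57BL/6 × CBA F1 hybrids and carried the same age label in all groups. MTS mice were exposed nose-only to the smoke of reference cigarettes daily on most days of the week, and sham mice were placed in restrainers only. The break shams spent 12 or 6 weeks under the sham regime followed by the same 6 week break, with 5 arrays each, and the remaining arrays were 5 of 6 week smoke, 4 of 12 week smoke and 5 each of 6 and 12 week sham, all without a break. The 12 week groups of the break also reached the end of the study after a longer elapsed time and a longer time in restraint, so that in the smoke and break groups smoke duration cannot be told apart from either. The contrast of 12 against 6 weeks in the break shams shares that difference in time but had no smoke. The labels give the same few hours since exposure for all groups, also those with a break.

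Tobacco smoke carries polycyclic aromatic hydrocarbons that activate the aryl hydrocarbon receptor (AhR), which pairs with Arnt and switches on xenobiotic metabolism genes, and it carries oxidants that activate Nrf2 and its antioxidant genes. Smoke also draws macrophages and neutrophils into the lung and injures the club and ciliated cells that line the airways. Signals of the first kind are short-lived once the ligand is gone, whereas shifts in cell make-up and matrix can last.

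The starts of the 2 genes with the largest smoke changes are shown, with matches to the core binding motif of AhR and Arnt marked. Capitals mark the core xenobiotic response element GCGTG, searched on both strands, so that CACGC is its reverse complement. Sequences are from RefSeq on GRCm38.p6 and span 300 bases each, mostly upstream of the start and ending 50 bases past it. Cyp1a1 lies at chr9:57697363-57697662 on the plus strand and Cyp1b1 at chr17:79715012-79715311 on the minus strand.
Cyp1a1: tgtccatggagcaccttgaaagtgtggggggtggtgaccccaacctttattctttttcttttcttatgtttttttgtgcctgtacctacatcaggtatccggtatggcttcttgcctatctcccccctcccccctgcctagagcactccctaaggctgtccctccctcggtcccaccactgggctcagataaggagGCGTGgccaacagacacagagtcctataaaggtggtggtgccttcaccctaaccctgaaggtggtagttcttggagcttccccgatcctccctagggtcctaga
Cyp1b1: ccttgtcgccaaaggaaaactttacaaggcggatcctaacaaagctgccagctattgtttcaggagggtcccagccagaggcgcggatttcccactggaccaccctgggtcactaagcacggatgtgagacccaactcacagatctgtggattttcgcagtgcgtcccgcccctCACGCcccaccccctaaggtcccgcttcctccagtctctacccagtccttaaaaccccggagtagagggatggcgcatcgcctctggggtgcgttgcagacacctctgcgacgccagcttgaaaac
Each window held 1 match. The same letters occur in 10639 of 32851 RefSeq promoter windows, or 32.4%. The match alone describes the window and does not show whether AhR binds there, which was not tested.

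Defining markers of lung cells were present in both groups. Surfactant protein C (Sftpc) averaged 3.37 at 12 weeks and 3.48 at 6 weeks on the log2 scale, and the club cell secretoglobin Scgb1a1 averaged 2.59 and 2.68. The type I cell receptor Ager averaged 3.23 and 3.28, and the endothelial cadherin Cdh5 averaged 1.34 and 1.57. Scgb1a1 was low in the arrays of run 1 in both groups, at 0.51 and 0.83. A run is 1 of the 5 exposure dates in the labels, and each run held 1 array of each group compared here. The median Cy5 signal was 2.68 to 4.86 times background in the 12 week arrays and 2.4 to 6.97 times in the 6 week arrays. Of all probes, 67.5% to 85.9% in the 12 week arrays and 67.2% to 88.9% in the 6 week arrays lay above the negative controls.

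Across 17560 probes, limma with run as a block called 0 probes (0%) at an adjusted p under 0.05, and the smallest adjusted p was 0.679. At an unadjusted p under 0.05 there were 908 probes, or 5.17% of those tested, of which 431 (2.45%) were higher and 477 (2.72%) lower at 12 weeks. The levels of the groups did not overlap for 41 probes that were higher (0.233%) and 42 that were lower (0.239%) after the longer exposure. In the break shams the same contrast also gave 0 called probes, with 1340 (7.63%) at an unadjusted p under 0.05 and 62 (0.353%) higher and 97 (0.552%) lower without overlap. The difference between the smoke and break contrast and the break sham contrast gave 0 called probes, 802 (4.57%) at an unadjusted p under 0.05, and a smallest adjusted p of 0.998. In the same fit, smoke against sham without a break called 11 probes (0.0626%) after 6 weeks and 76 (0.433%) after 12 weeks, of which 10 and 66 rose.

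**Figure D1:**
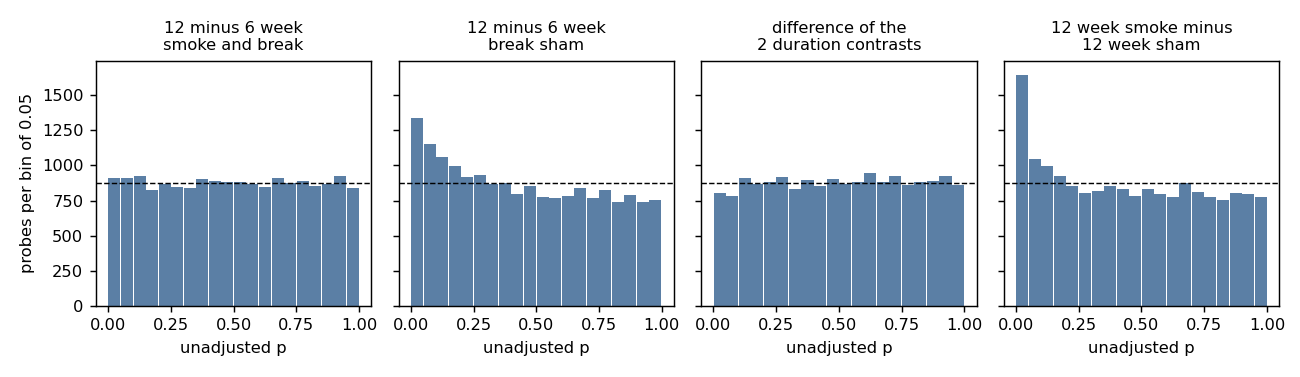
Histograms of unadjusted limma p over 17560 probes, in bins of 0.05 (horizontal axis) by number of probes (vertical axis), for 4 contrasts, with a dashed line at the mean count per bin. The first bin holds 908 probes for 12 minus 6 week smoke and break, 1340 for the break shams, 802 for the difference between both and 1645 for 12 week smoke minus sham.

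The differences between the recovered groups were small at most probes. The median absolute log2 difference was 0.103 and the median signed difference was −0.001. A difference over 1.5-fold was seen at 235 probes (1.34%), 101 of them lower, and over 2-fold at 28 probes (0.159%), 26 of them higher. These fold counts moved with the handling of background, to 823 and 142 with a normexp offset of 0 and to 110 and 19 with no background correction. The 95% confidence interval lay within 1.5-fold in both directions for 12831 probes, or 73.1%, and within 2-fold for 16883, or 96.1%. Precision depended on signal. In the dimmest 4390 probes 42.2% of intervals lay within 1.5-fold, with a median half-width of 0.446 on the log2 scale, and in the brightest 4390 probes 94.1% did, with a median half-width of 0.211.

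The genes that smoke moved are the most direct place to look for a trace, and as a group they showed little. Smoke against sham called 80 probes at either duration, 69 up and 11 down, standing for 75 named genes. None of the 80 was called between the recovered groups, and 7 (8.75%) had an unadjusted p under 0.05, against 5.17% of all probes. Of these 7, 3 lay along the direction of the smoke change and 4 against it. They were Ctss (0.51), Gpnmb (0.38) and Ly75 (0.27) along it, and Atp2b2 (−0.48), Zbtb46 (−0.44), Ifi203 (0.26) and 1 unnamed probe (−0.33) against it. Counted along the direction of smoke, 44 of the 80 were further along at 12 weeks and 36 were not, with a median of 0.011 and a range from −0.50 to 0.51. The medians within runs 1 to 5 were −0.087, 0.061, 0.06, −0.007 and 0.042. The median absolute difference was 0.0901, beside 0.103 over all probes. The larger of the 6 and 12 week smoke changes had a median absolute value of 0.767 for these 80, which were chosen by those changes. No probe of the 80 differed by more than 1.5-fold, and the interval lay within 1.5-fold for 63 of them. The same 80 probes had a median along smoke of 0.23 for 12 against 6 week smoke without a break and of 0.016 in the break shams. The 0.23 is not independent, because the same smoke arrays also served to choose the 80 probes and their direction.

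**Figure D2:**
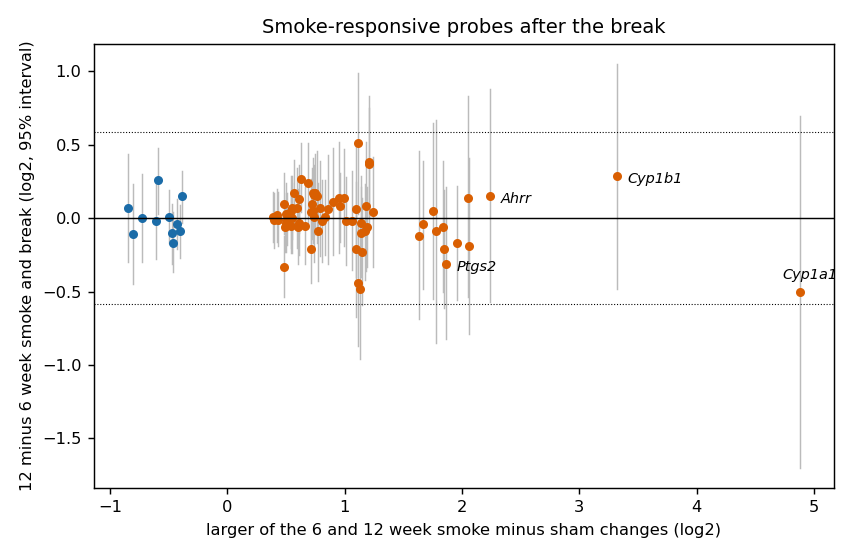
The 80 smoke-responsive probes, with the larger of the 6 and 12 week smoke minus sham changes on the horizontal axis and the 12 minus 6 week smoke and break difference with its 95% interval on the vertical axis, both log2. Orange points rose and blue points fell with smoke, and dotted lines mark 1.5-fold. All 80 points lie between the dotted lines, from −0.50 to 0.51.

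Cyp1a1, which oxidises polycyclic aromatic hydrocarbons, rose by 3.95 on the log2 scale after 6 weeks of smoke and by 4.88 after 12 weeks. In recovered lungs its log2 levels in runs 1 to 5 were 1.86, 0.85, 0.45, 1.30 and 0.52 after 12 weeks and 2.19, 0.96, 1.42, 0.97 and 1.93 after 6 weeks. The groups overlapped, and the 12 week array was the higher of its run only in run 4. The difference was −0.50 (95% interval −1.70 to 0.70, adjusted p = 0.994, limma), and the break shams averaged 1.28 and 1.45. Cyp1b1, a second enzyme of that kind, read −1.18, −1.13, −1.54, −0.28 and −1.16 after 12 weeks and −1.41, −1.59, −1.48, −1.62 and −0.63 after 6 weeks. Its highest value came from 1 array in each group, in different runs, and the difference was 0.29 (−0.48 to 1.05). Nqo1, a quinone reductase, read −1.74, −1.47, −1.48, −1.74 and −1.39 after 12 weeks and −1.70, −1.49, −1.52, −1.54 and −0.74 after 6 weeks, a difference of −0.17 (−0.56 to 0.22). The groups overlapped, and the run 5 array at 6 weeks stood above the rest.

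The other AhR and Nrf2 targets chosen for naming differed by −0.21 to 0.15. Among AhR targets, the repressor Ahrr differed by 0.15 (−0.57 to 0.88) and the aldehyde dehydrogenase Aldh3a1 by −0.21 (−0.61 to 0.19). Among Nrf2 targets, the haem oxygenase Hmox1 differed by 0.14 (−0.54 to 0.83), the glutathione synthesis subunit Gclc by −0.19 (−0.79 to 0.41), the sulfiredoxin Srxn1 by −0.04, and a second probe of it by −0.21, the thioredoxin reductase Txnrd1 by −0.06 and the carbonyl reductase Cbr3 by −0.06. The Txnrd1 interval, from −0.33 to 0.21, was the narrowest of these. Over lists, 5 of 8 AhR-responsive genes were higher and 3 lower, with a median of 0.075, which turned to −0.068 under a stricter filter on dim probes, and 0 at an unadjusted p under 0.05. The 38 Nrf2 antioxidant genes were split evenly, 19 higher and 19 lower, with a median of −0.001, the same as over all probes. The list ranged more widely than the targets named above, from −0.59 to 0.37. In each direction 1 gene had an unadjusted p under 0.05, against 2.45% of all probes higher and 2.72% lower.

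Inflammatory genes likewise showed no called difference. The cytokine Il6, which rose by 1.63 after 12 weeks of smoke, differed by −0.12 (−0.69 to 0.46), its feedback inhibitor Socs3 by 0.01 (−0.25 to 0.26) and the prostaglandin synthase Ptgs2 by −0.31 (−0.82 to 0.21). The acute phase gene Saa3 differed by 0.32 (−0.08 to 0.72) and the iron-binding Lcn2 by 0.11 (−0.17 to 0.39). Of 33 inflammatory mediators 19 were higher and 14 lower, with a median of 0.052, and of 31 IL-6/Stat3 signalling genes 14 were higher and 17 lower, with a median of −0.01 that ranged from −0.031 to 0.035 over the settings tried. Of matrix genes, the collagens Col1a1 and Col3a1 differed by −0.07 and −0.11 and elastin (Eln) by −0.27, and 29 of 45 collagen and fibroblast genes were lower with a median of −0.074.

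**Figure D3:**
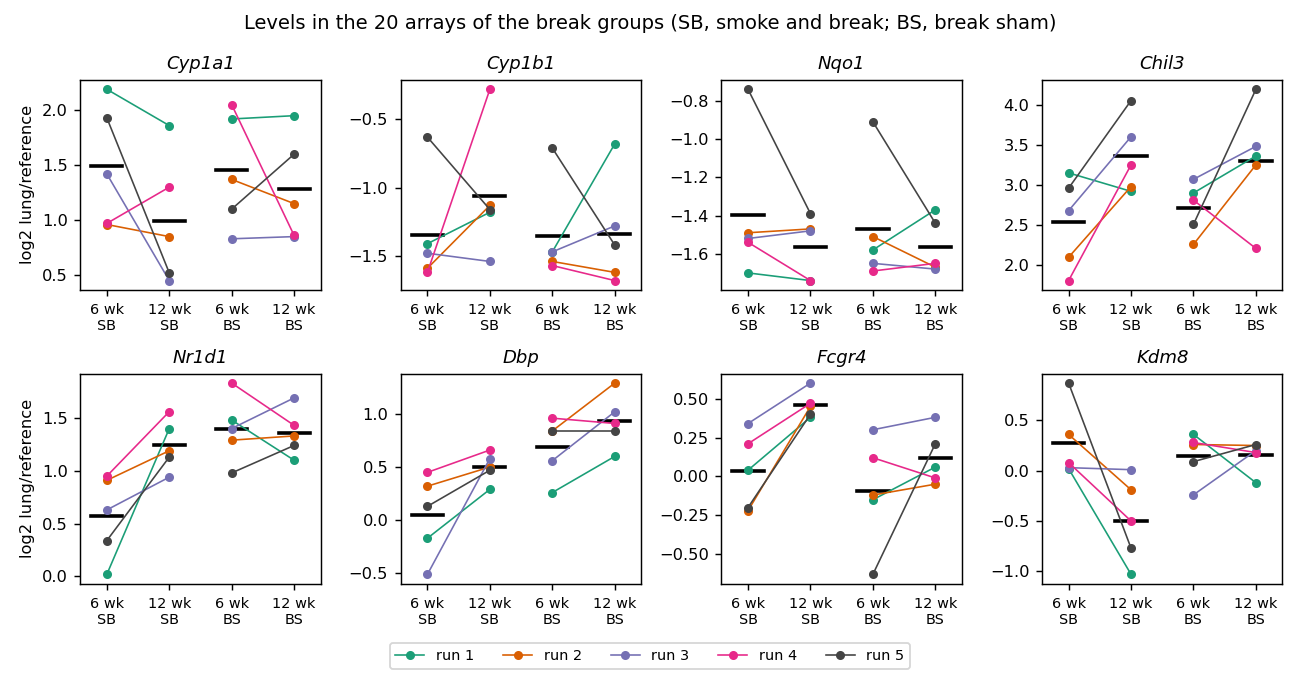
Log2 lung/reference of 8 genes in the 20 arrays of the break groups (SB, smoke and break, and BS, break sham), with arrays of a run joined by a line and black bars at group means. Cyp1a1 overlaps between the durations, with 12 week values from 0.45 to 1.86, whereas Nr1d1 is higher at 12 weeks in each of 5 runs of SB, with no such order in BS.

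Because no gene passed the threshold, the genes below were those with the largest differences among probes with an unadjusted p under 0.01, the same sign in all 5 runs and no overlap of the groups, 10 higher and 11 lower. These criteria fix their direction, and their adjusted p ran from 0.679 to 0.889. Among the 10 was 1 member of the macrophage and lysosome list, Adgre1. Fcgr4, an activating receptor for immunoglobulin G, read 0.38, 0.45, 0.60, 0.47 and 0.40 after 12 weeks and 0.04, −0.22, 0.34, 0.21 and −0.20 after 6 weeks, a difference of 0.43 (0.17 to 0.68). Its 12 week values lay close together and the lowest stood just above the highest at 6 weeks. Adgre1, which encodes a classical macrophage antigen, differed by 0.46 (0.17 to 0.74), its lowest 12 week and highest 6 week values both rounding to −0.12, the inflammatory caspase Casp1 by 0.45 (0.17 to 0.73) and Cyba, a subunit of the phagocyte NADPH oxidase, by 0.42 (0.15 to 0.69).

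These 4 genes were also higher at 12 weeks in the break shams, by 0.22 for Fcgr4, 0.32 for Adgre1, 0.18 for Casp1 and 0.39 for Cyba, and none of their excesses over the shams passed the test. The run 5 array at 6 weeks held the lowest value of Adgre1, Casp1 and Cyba, at −0.72, −1.14 and −1.88, and without it they differed by 0.35, 0.34 and 0.27. Bulk RNA cannot tell fewer cells of a type from less RNA per cell. Of the wider list of 31 macrophage and lysosome genes, 19 were higher and 12 lower, with a median of 0.036. Of them 3 were higher at an unadjusted p under 0.05, against 2.45% of all probes. In the break shams the median was 0.053 and 5 members passed that threshold in either direction, against 7.63% of all probes. Chil3, a chitinase-like protein of macrophages, differed by 0.82 (−0.10 to 1.74) with 0.59 in the shams, and the cysteine protease Ctsk by −0.02 (−0.57 to 0.52). The lysosomal protease Ctss, which rose with smoke, differed by 0.51 (0.03 to 0.99) and by 0.50 in the shams.

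The other 6 of the 10 were of mixed function. Fam78a differed by 0.80 (0.24 to 1.36), with 2.12 in the run 1 array at 12 weeks and 0.43 to 0.70 in the other 4. Ssr4, a subunit of the translocon-associated complex, and Eif3k, a translation initiation subunit, each differed by 0.34, and so did Bpifb9a. Acbd6, an acyl-CoA binding protein, differed by 0.28 and Tmub1 by 0.26. Of these, Fam78a and Bpifb9a were not above the negative controls in every array.

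Of the 11 lower genes, Kdm8, which encodes a JmjC domain hydroxylase, read −1.03, −0.19, 0.01, −0.50 and −0.77 after 12 weeks and 0.02, 0.36, 0.03, 0.08 and 0.87 after 6 weeks. The closest values of the groups, 0.01 and 0.02, nearly met. Its difference was −0.77 (−1.13 to −0.40, adjusted p = 0.679, limma), with 0.00 in the break shams. The fatty acid receptor Gpr84 differed by −0.74, but lay above the negative controls in only 1 of 5 and 2 of 5 arrays. The prostaglandin E receptor Ptger1 differed by −0.60 (−0.97 to −0.23) and the adhesion molecule Amigo1 by −0.55 (−0.90 to −0.19). The rest were the olfactory receptors Olfr51 (−0.72) and Olfr488 (−0.33), the D-amino acid oxidase Dao (−0.68), Fam72a (−0.67), Tex22 (−0.65), the rod phosphodiesterase Pde6b (−0.49) and the transcription factor Mesp2 (−0.28). Of these, Olfr51, Olfr488, Dao, Fam72a, Tex22 and Pde6b were not above the negative controls in every array.

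The smallest p of all probes belonged to a clock gene. Nr1d1, which encodes the circadian repressor REV-ERBα, read 1.40, 1.19, 0.94, 1.56 and 1.13 after 12 weeks and 0.02, 0.91, 0.63, 0.95 and 0.34 after 6 weeks. The 12 week array was the higher of each run, and the groups overlapped only in that 0.94 lay below 0.95. The difference was 0.68 (0.37 to 0.98, unadjusted p = 7.96e-05 and adjusted p = 0.679, limma). The break shams averaged 1.36 and 1.40, so that the 6 week smoke and break group was the low one, at −0.83 against its own shams (adjusted p = 0.0789, limma). The excess over the shams was 0.71 (0.28 to 1.14, adjusted p = 0.998).

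Dbp, a clock output transcription factor, read 0.29, 0.50, 0.58, 0.66 and 0.47 after 12 weeks and −0.17, 0.32, −0.51, 0.45 and 0.13 after 6 weeks. It was higher at 12 weeks in each run with overlap between the groups, and differed by 0.46 (0.12 to 0.80), beside 0.24 in the shams. Bhlhe40, a clock repressor, differed by 0.28 (0.01 to 0.54). Of 21 clock genes 11 were higher and 10 lower, with a median of 0.052, and 3 were higher at an unadjusted p under 0.05, against 2.45% of all probes. In the break shams 3 clock genes passed that threshold in either direction, against 7.63% of all probes. The hour of day at which lungs were taken is not given in the sources used here, and its part in these values was not tested.

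Gene lists of lung cell types showed their lowest medians in the club and ciliated cells. The mucous cell list, also of the airway, had a median of 0.076. Of 12 club cell genes 10 were lower at 12 weeks, with a median of −0.248, beside −0.001 over all probes and 0.054 in the break shams. The median was below 0 in each run, from −0.304 to −0.063, but no gene of the list had an unadjusted p under 0.05. Aldh1a7, an aldehyde dehydrogenase, differed by −0.40 (−0.81 to 0.02) and haptoglobin (Hp) by −0.38 (−0.92 to 0.15).

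Of 23 ciliated cell genes 21 were lower, with a median of −0.211 and 2 lower at an unadjusted p under 0.05, against 2.72% of all probes, and the break shams had a similar median of −0.225. Tppp3, a tubulin-binding protein, lay between 3.69 and 4.32 in the 5 arrays after 12 weeks and between 3.98 and 4.77 in the 5 arrays after 6 weeks. The 12 week array was the lower of each run and the groups overlapped, with a difference of −0.45 (−0.78 to −0.11). Enkur, an axonemal protein, differed by −0.58 (−1.13 to −0.03) and by −0.47 in the shams. Outside the list, Spag17 and Pifo, both of cilia and chosen after their values were seen, averaged 1.84 and 2.97 after 12 weeks against 2.84 and 3.98 after 6 weeks, and differed by −0.51 and −0.61 in the shams.

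Of 24 T and NK cell markers 20 were higher, with a median of 0.209 beside 0.11 in the break shams, and the run medians ran from −0.097 to 0.648, the last in run 5. Of them 3 were higher at an unadjusted p under 0.05, against 2.45% of all probes. In the break shams 4 members passed it in either direction, against 7.63% of all probes. Without the 2 arrays described below for muscle genes, the median was 0.117. The chemokine Ccl5 differed by 0.52 (0.13 to 0.91) and the T cell receptor subunit Cd3g by 0.44 (0.07 to 0.81). For both, the lowest value of all 10 arrays was the run 5 array at 6 weeks, at −1.43 and −2.14. Of 19 B cell and plasma cell markers 15 were higher, with a median of 0.189, beside 0.066 in the break shams and 0.077 without those 2 arrays, and 0 at an unadjusted p under 0.05. The heavy chain gene Ighm differed by 0.23 (−0.37 to 0.83) and Jchain by 0.31 (−0.24 to 0.86).

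Of 31 endothelial genes 20 were lower, with a median of −0.123. In each direction 1 had an unadjusted p under 0.05, against 2.45% of all probes higher and 2.72% lower. The tight junction gene Cldn5 differed by −0.49 (−0.95 to −0.03) and the arterial connexin Gja4 by 0.46 (0.02 to 0.91). Among smooth muscle genes, calponin (Cnn1) read 3.81, 3.47, 4.03, 4.01 and 4.14 after 12 weeks and 4.06, 4.45, 4.32, 4.56 and 5.04 after 6 weeks. It was lower at 12 weeks in each run, and the groups overlapped only in that 4.14 lay above 4.06, with a difference of −0.60 (−0.89 to −0.30, adjusted p = 0.679, limma) and −0.38 in the break shams. The median of all 14 smooth muscle and pericyte genes was −0.08, and 0.029 without the run 3 array at 12 weeks. 

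Of the 31 IL-6/Stat3 signalling genes, 2 were higher and 1 lower at an unadjusted p under 0.05, against 2.45% and 2.72% of all probes. They were the transcription factor Myc (0.46, 0.10 to 0.82), the kinase Jak1 (0.24, 0.04 to 0.45) and the cytokine Osm (−0.51, −0.84 to −0.19), which differed by −0.12, 0.12 and −0.34 in the shams. Myc read −1.35 in the run 1 array at 12 weeks and −3.24 to −2.81 in the other 9 arrays, and without that array it differed by 0.15. Of 29 immediate early genes, 1 was higher and 2 were lower at an unadjusted p under 0.05, against 2.45% and 2.72% of all probes. The higher one was again Myc. The lower ones were the phosphatase Dusp6 (−0.52) and the transcription factor Klf4 (−0.42), which differed by −0.43 and −0.13 in the shams.

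**Figure D4:**
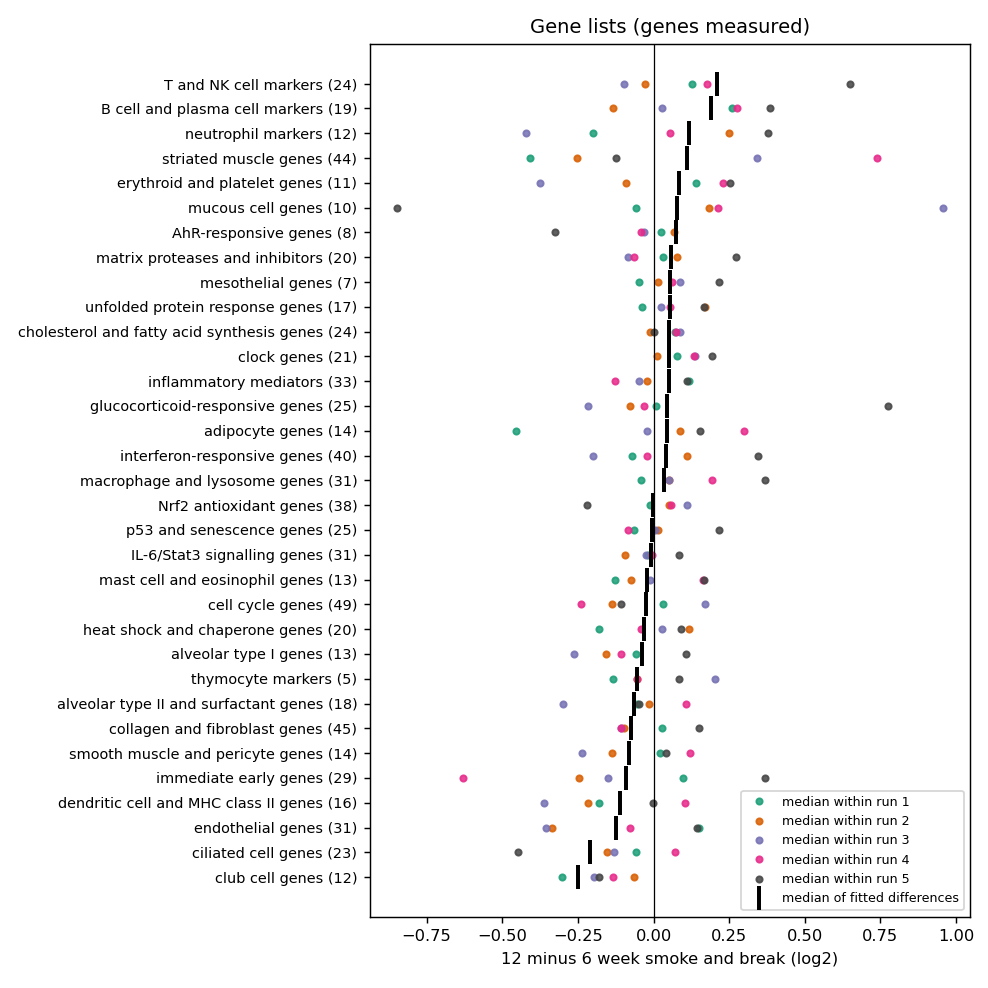
The median 12 minus 6 week smoke and break difference (log2, horizontal axis) of 33 gene lists (vertical axis, genes measured in brackets), as fitted (black bars) and within each of 5 runs (points). The T and NK cell list lies highest at 0.209 and the club cell list lowest at −0.248, and the run medians of most lists fall on both sides of 0.

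The largest differences of all probes were in genes of fast skeletal muscle, and they rested on 2 arrays. Tnnc2, a fast troponin, read −0.83, −0.81, −1.13, 4.23 and 3.60 after 12 weeks and −0.59, −0.83, −1.17, −1.19 and −1.22 after 6 weeks. Runs 4 and 5 at 12 weeks stood far above the other 8 arrays, which lay close together. The difference was 2.01 (0.77 to 3.26). The myosin light chain Mylpf differed by 1.96, the myosin heavy chain Myh2 by 1.95, Tnni2 by 1.38, Pvalb by 1.32, Acta1 by 1.29 and Tnnt3 by 1.24. Other skeletal muscle genes differed less, with 0.13 for the myosin Myh1, 0.25 for Ryr1 and 0.28 for Atp2a1. Myl2 and Tnnt1, of slow muscle, differed by 1.13 and 0.36. Without these 2 arrays, an alternative chosen after seeing the data, Tnnc2 differed by −0.01 and Myh2 by −0.42, and limma called 0 probes with 870 at an unadjusted p under 0.05.

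Of 44 striated muscle genes, 10 had an unadjusted p under 0.05, all higher, where 2.45% of all probes were higher at that threshold. In 15 of the 44 both arrays lay above the other 8, as they did for 501 of all probes (2.85%). The 15 are not independent, because these 2 arrays were singled out by their muscle gene values. Of the 28 probes over 2-fold, 8 were members of this list. Heart muscle genes were high in both groups, with differences of −0.23 for the myosin Myh6, −0.06 for the atrial light chain Myl7 and −0.50 for the troponin Tnni3. Whether other tissue was taken with these lungs was not tested.

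Liver transcripts, chosen after their values were seen, and mucous cell genes also varied by array. Albumin (Alb) read 1.22, 4.38, 0.27, 2.11 and 1.71 after 12 weeks and 0.78, 0.27, 0.42, 2.80 and −0.12 after 6 weeks. The run 2 array at 12 weeks was the highest and the groups overlapped, with a difference of 1.10 (−0.16 to 2.37) and −1.41 in the break shams. Ambp, Fgg and Mup5, also made in liver, differed by 1.48, 1.18 and 1.12. Clca1, a product of mucous cells, read −0.47, 0.71, 5.62, 5.33 and 4.73 after 12 weeks and 0.55, 0.08, −0.05, 0.01 and 6.66 after 6 weeks. It was high in 3 arrays at 12 weeks and 1 at 6 weeks, with a difference of 1.73 (−0.50 to 3.97) that ran from 0.42 to 2.99 over the settings tried, beside 2.01 in the break shams. The mucin Muc5b differed by 0.64. The 10 mucous cell genes had a median of 0.076, which ran from −0.139 to 0.349 over the settings tried.

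**Figure D5:**
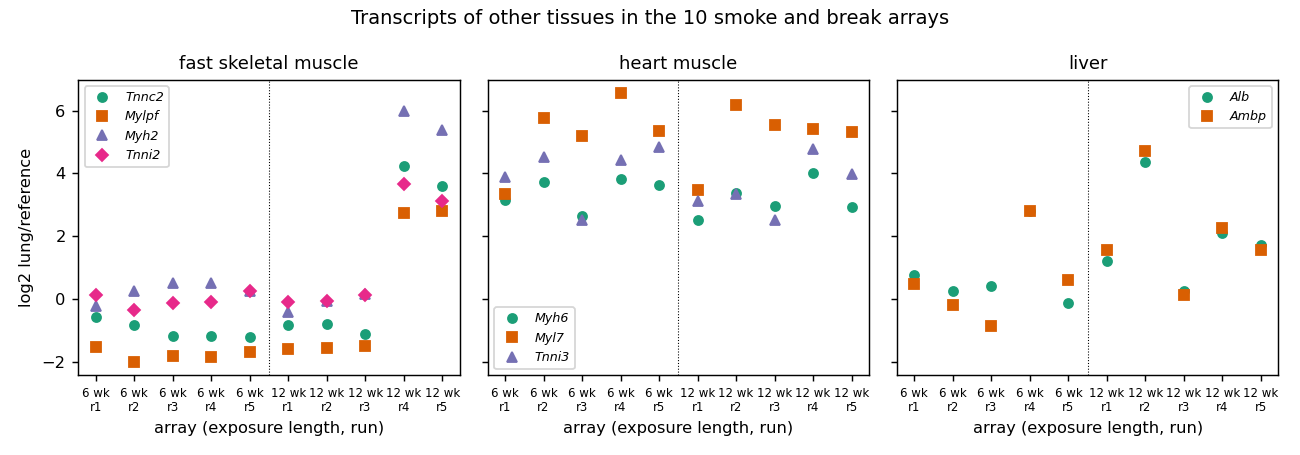
Log2 lung/reference of genes of fast skeletal muscle, heart muscle and liver (3 panels) in each of the 10 smoke and break arrays, ordered by exposure length and run on the horizontal axis. Tnnc2 reads 4.23 and 3.60 in runs 4 and 5 at 12 weeks and below 0 in the other 8 arrays, whereas heart genes are high in all 10.

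Of the total variance of the 10 arrays over 17560 probes, 54.1% lay between runs, 9.59% between the groups and 36.3% was residual. Run held 44.4% and group 11.1% of the degrees of freedom, the shares that each would take with no effect. The first principal component held 21.2% of the variance, and 95.9% of it followed run and 1.2% exposure length. Arrays of the same run from different groups correlated at a median of 0.93 across probes, and arrays of different runs at 0.894, where probes are not independent replicates and all arrays share the reference RNA.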

How the data were processed

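Lung RNA and a universal mouse reference were hybridised to 2-colour Agilent arrays. The authors deposited median signal and background intensities of each channel as scanner output, and their own log2 ratios after global LOWESS, which served as an alternative. No columns of other samples were present (0). Intensities were corrected with normexp (offset 50), normalized by loess within arrays and averaged by probe, with limma 3.58.1 in R 4.3.3. Probes were kept where the Cy5 signal exceeded the trimmed mean plus 3 SD of negative controls in at least 4 arrays of a group, 17560 of 20868. Of all gene probes, 18235 had 1 symbol, 30 several and 2603 none, and only the first were named.

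All 8 groups were fitted together with the exposure date label (run) as a block, and p-values were adjusted by Benjamini-Hochberg over all probes. Arrays of the same run deviated together in the smoke and break groups, with correlations of deviations from 0.117 to 0.257 in the 5 runs. Each array is 1 animal, and the number of arrays limits precision. The fit was tested on simulated data. Members and gene lists were chosen with earlier results of these data known. The text names up to 12 genes per direction past the threshold. Where needed these were filled by unadjusted p under 0.01 with equal sign in 5 runs and no overlap. It also names a set of smoke genes and, for some lists, members with large differences, not always the largest. A gene with several probes is given by its brightest. Alternatives were background correction, offset, centring, scaling, the authors' ratios, filters, array weights, block and leaving out each array.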

Additional observations from a re-analysis of the deposited data

Results flagged for a closer look

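Of 178 sets of 5 log2 levels, from 89 named genes in the 2 smoke and break groups, 21 held 1 array apart from the other 4 by more than Dixon's critical value. Chance flags about 1 in 20 groups, and of these 21 sets 8 were in the run 5 array after 6 weeks. After 6 weeks, the run 1 array stood apart for Scgb1a1 at 0.83 (others 2.99 to 3.34). After 6 weeks, the run 3 array stood apart for Jchain at −4.49 (others −3.40 to −2.99). After 6 weeks, the run 4 array stood apart for Ptgs2 at 1.14 (others −0.63 to −0.22). After 6 weeks, the run 5 array stood apart for Casp1 at −1.14 (others −0.68 to −0.59), Cyba at −1.88 (others −0.72 to −0.54), Eif3k at −1.67 (others −1.15 to −1.07), Olfr51 at 0.74 (others 0.16 to 0.28), Cyp1b1 at −0.63 (others −1.62 to −1.41), Nqo1 at −0.74 (others −1.70 to −1.49), Aldh3a1 at 0.40 (others −0.26 to −0.11) and Clca1 at 6.66 (others −0.05 to 0.55). After 12 weeks, the run 1 array stood apart for Fam78a at 2.12 (others 0.43 to 0.70), Olfr51 at −1.52 (others −0.21 to −0.04), Il6 at −1.89 (others −1.09 to −0.89), Ptgs2 at −1.63 (others −0.37 to 0.09), Hp at 2.69 (others 4.66 to 5.10), Scgb1a1 at 0.51 (others 2.79 to 3.62) and Myc at −1.35 (others −3.06 to −2.81). After 12 weeks, the run 2 array stood apart for Muc5b at 1.04 (others 2.65 to 3.28). After 12 weeks, the run 4 array stood apart for Aldh1a7 at 4.83 (others 3.98 to 4.17). After 12 weeks, the run 5 array stood apart for Casp1 at −0.10 (others −0.38 to −0.30).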

How the results depend on the processing

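The count of called probes between the recovered groups was 0 in all 26 settings tried, with 620 to 1155 probes at an unadjusted p under 0.05 and a smallest adjusted p of 0.134, the latter without the 2 muscle-high arrays, a setting chosen after seeing the data. Leaving out each array gave 0 called probes and 670 to 1056 at an unadjusted p under 0.05. Without the replicate block (run), limma called 0 probes and 626 had an unadjusted p under 0.05. The difference between both duration contrasts stayed at 0 in 34 settings, but its smallest adjusted p (limma) was less stable. It was 0.998 as reported, 0.0933 with only the 20 break arrays and 0.0598 without the 6 week break sham array of run 2. The break sham contrast called 2 probes with array weights, and leaving out each array gave 0 to 1, with 1 called without either the 6 week or the 12 week break sham array of run 2. The median of smoke-responsive probes along smoke ran from −0.017 to 0.041. Probes over 1.5-fold, 235 as reported, ranged from 103 with a stricter filter on dim probes to 823 with offset 0, with 105 by the authors' ratios, 374 without a filter and 486 without the 2 muscle-high arrays. Probes over 2-fold, 28 as reported, numbered 142, 19, 14 and 11 with offset 0, no background correction, the authors' ratios and the stricter filter, and ran from 22 to 50 when 1 array was left out, with 50 and 49 without the run 1 and run 3 arrays at 12 weeks and 48 without the run 4 array at 6 weeks. The share of intervals within 1.5-fold ran from 55.5% to 86.6%. Of 89 named genes, none passed the threshold in any setting, and 11 changed sign in at least 1. The club cell median ran from −0.278 to −0.173, the ciliated from −0.296 to −0.105, and the striated muscle median was −0.318 without the 2 muscle-high arrays.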
